A study of Mus musculus with 4 samples.

Results

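The 33 lysosome biogenesis genes described here are a named list of lysosomal hydrolases, lysosomal membrane proteins, subunits of the lysosomal proton pump and the TFEB family of transcription factors, with the cathepsins left out. All 33 were found by symbol among the 27998 genes counted. They were followed in CD45+ leukocytes, enriched with magnetic beads from the injured tibialis anterior of male C57BL/6 mice aged 8 to 12 weeks. The muscle had been injected with cardiotoxin, a venom toxin that kills muscle fibres, and 2 days (dpi2) or 4 days (dpi4) later the cells went into 10x Genomics 3′ libraries, which count RNA molecules cell by cell. All mice carried Bach1 fl/fl alleles with loxP sites around exon 4. Control mice had no Cre, and KO mice also carried Lyz2-Cre, whose promoter is active in myeloid cells, so that T and NK cells of the KO mice were not targeted. Each of the 4 groups was 1 library.

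Lysosomes are acidic organelles in which hydrolases break down engulfed and recycled material, and macrophages that clear dead muscle fibres depend on them. The vacuolar proton pump acidifies the lumen, membrane proteins such as LAMP1 protect and shape the organelle, and transporters carry the breakdown products out. TFEB, TFE3 and MITF are transcription factors that bind a short palindrome in the promoters of many lysosomal genes. BACH1 is a heme-binding repressor that occupies antioxidant response elements.

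Because that palindrome and the antioxidant element are known letter by letter, the promoters of the list were searched for them first. RefSeq windows of 300 bases (GRCm38.p6), from 250 before to 50 after the transcription start, were found for 28 of the 33 genes (37 windows, as a gene with several starts has several), all but *Npc1*, *Asah1*, *Atp6v0d2*, *Atp6v1b2* and *Atp6v1h*, and both strands were searched. The core palindrome CACGTG was present in 8 of these 28 genes (28.6%), against 8.09% of all 27025 genes with a window. They were *Lamp1*, *Mcoln1*, *Cln3*, *Gaa*, *Gla*, *Glb1*, *Atp6v0d1* and *Atp6v1a*. Its extended form TCACGTGA, every match of which also holds the core, was present in 5 of 28 (17.9%), against 1.12% of all genes. The antioxidant element TGACNNNGC was present in 8 of 28 (28.6%) against 14.0%, and the related TGANTCA, the motif of AP-1 factors, in 5 of 28 (17.9%) against 8.97%. These are matches of letters and no binding was measured.

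Of the 9 genes taken for macrophages as the TFEB family and the highest and lowest past the size rule (below), 6 had a window and 3 of these held a motif. Stretches of 2 of them, *Mitf* and *Acp5*, are shown because a TFEB family gene and the member that differed most between genotypes at dpi2 hold the antioxidant element there. Each gene has 3 windows, and in both the match lies before an alternative start inside the gene and not in the window at its 5′ end. The printed stretches begin 122515 and 122719 bases (*Mitf*) and 4899 bases (*Acp5*) after the 5′ end of the annotated gene. Each runs 5′ to 3′ on the strand of the gene, with TGACNNNGC in capitals. *Mitf* has 2 matches, of which the first (chr6:97929567-97929614, plus strand) reads on the opposite strand and begins 241 bases before that internal start, and the second (chr6:97929771-97929816) begins 16 bases before it. The match of *Acp5* (chr9:22130744-22130812, minus strand) begins 184 bases before its internal start. The third gene, *Tfe3*, holds TGANTCA after the start in 1 of its 2 windows.
Mitf, first match: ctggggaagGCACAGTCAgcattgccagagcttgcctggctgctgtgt
Mitf, second match: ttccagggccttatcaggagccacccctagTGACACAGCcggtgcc
Acp5: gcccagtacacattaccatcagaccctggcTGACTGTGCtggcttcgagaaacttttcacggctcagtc

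The libraries held from 4177 to 6602 barcodes and from 57010520 to 80228489 UMIs, that is, distinct RNA molecules, and from 3433 to 5721 cells were kept. Library pairs shared from 2 to 14 barcodes. *Bach1* was at 189 and 187 CPM (counts scaled to a common library total) over all barcodes in the control and KO libraries at dpi2 and at 207 and 217 CPM at dpi4. A count per gene does not see whether exon 4 is missing, so this level does not check the labels. *Lyz2*, the gene that carries the Cre, went with them: 9388 and 17.5 CPM at dpi2, and 15845 and 21.6 CPM at dpi4. The KO libraries thus also lacked most *Lyz2* RNA, and the controls had no Cre. Loss of *Bach1*, the Cre and loss of *Lyz2* RNA cannot be told apart here. *Hmox1*, a known target of BACH1 repression, was at 502 and 8190 CPM, and at 417 and 6326 CPM.

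Cells were grouped into classes by clustering without the 33 genes, and the clusters were named from marker genes. UMIs of each class were summed per library and given as CPM of the class total. No spread between mice was measured, because every group was a single library, and no test was run. Intervals are 95% intervals for counting error only, and PCR or sampling of animals or of cells is not in them. A gene is called higher or lower here only where its ratio was at least 1.5-fold, the interval left out 1 and the pair of libraries held at least 50 UMIs. The share of all genes that passed the same rule is given beside the counts of members in each class compared.

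Macrophages gave the largest share of their UMIs to the lysosome genes. The 33 genes together made up 1.68% of macrophage UMIs in both dpi2 libraries, 2.06% in the dpi4 control and 2.42% in the dpi4 KO. The share was from 1.08% to 1.28% in monocytes, from 0.647% to 0.836% in dendritic cells, from 0.548% to 0.594% in neutrophils and from 0.255% to 0.287% in T or NK cells. The order of these 5 classes was the same in every library, and no 2 of them overlapped in range. Because the classes were drawn from the same cells, this order is a description.

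Of the 33 genes, 18 had their highest level in macrophages in all 4 libraries. Among them was *Psap*, which encodes the precursor of the sphingolipid activator proteins, at 6139 CPM (control dpi2), 6396 CPM (KO dpi2), 7650 CPM (control dpi4) and 10079 CPM (KO dpi4). T or NK cells held from 293 to 463 CPM of it. *Lamp1*, a main membrane glycoprotein of the lysosome, was at 1339, 1449, 1581 and 1827 CPM in the macrophages of the same libraries, against at most 980 CPM in any other class. *Cd68*, a macrophage lysosomal glycoprotein, ranged from 913 to 1216 CPM in macrophages and from 21.7 to 75.0 CPM in T or NK cells. In all, 31 of the 33 genes were higher in macrophages than in T or NK cells in each of the 4 libraries, by ratio alone. Against neutrophils this held for 20 genes and against monocytes for 22.

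Other classes led for a few genes. *Arsb*, encoding arylsulfatase B, which removes sulfate from glycosaminoglycans, was highest in T or NK cells in all 4 libraries, at 131 CPM (control dpi2), 103 CPM (KO dpi2) and 142 CPM (control dpi4), and higher again in the KO at dpi4, against 15.4 to 28.3 CPM in macrophages. *Neu1*, the lysosomal sialidase, was highest in neutrophils, at 90.3, 85.0, 99.5 and 131 CPM, close to the 73.6 to 86.7 CPM of macrophages. *Tfeb* was highest in neutrophils at dpi2 (41.6 and 46.2 CPM) and in macrophages at dpi4 (38.6 and 41.7 CPM). *Mitf* was the only member of the family that was highest in macrophages in all 4 libraries, at 67.7 to 90.1 CPM there and at most 5.42 CPM in T or NK cells. The remaining 12 genes also changed their leading class from library to library. Among these 12, *Tfe3* was highest in monocytes at dpi2 and in neutrophils at dpi4, and in no library in macrophages.

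**Figure D1:**
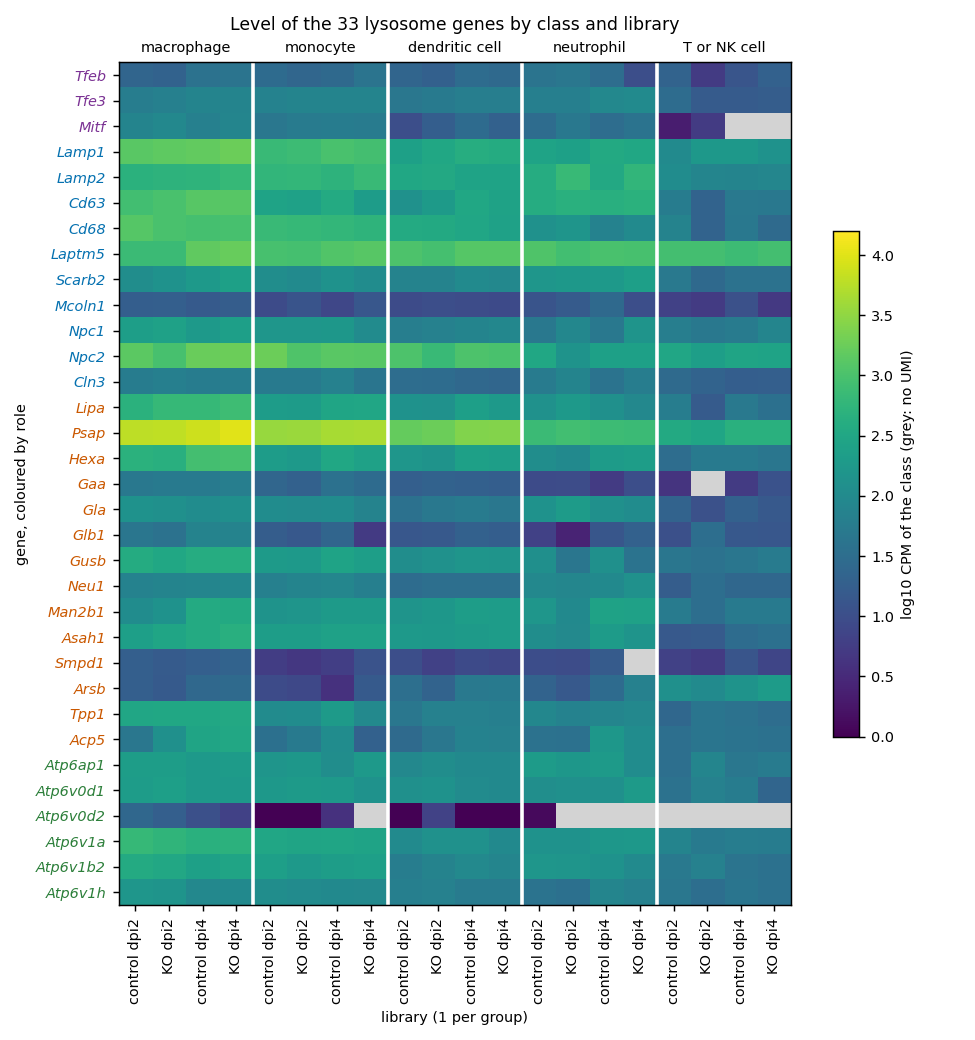
Level of each of the 33 genes (rows, coloured by role) in 5 classes and 4 libraries (columns), as log10 CPM of the class, with grey where no UMI was counted. *Psap* is the brightest row in macrophages, *Arsb* is brightest in T or NK cells, and *Atp6v0d2* is at most 6.81 CPM outside macrophages.

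In macrophages, the KO libraries differed little from the controls in the lysosome genes as a group. At dpi2, 1 of the 33 genes was higher in the KO library and 0 were lower, where 5.27% of the 11102 genes scored were higher and 6.05% lower. The median log2 ratio of the 33 genes was 0.08, and that of all genes scored was -0.02. At dpi4, 0 were higher and 1 was lower, where 3.21% of 11945 genes were higher and 4.17% lower. At dpi4, 29 of the 33 ratios were above 1, with a median log2 ratio of 0.13, against 6247 of 11945 genes and a median of 0.01. The make-up of the class differed between the genotypes, and the medians within sub-clusters at dpi4 lay on both sides of 0 (below). The sizes were small: apart from *Atp6v0d2*, the log2 ratios at dpi4 lay between -0.03 (*Man2b1*) and 0.40 (*Psap*). No member was past the rule at both time points, where 1.01% of 11034 genes were higher at both and 0.625% lower at both. Ratios lay on the same side of 1 at both times for 17 of 33 members (51.5%) and for 6507 of 11034 genes.

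*Acp5* (ENSMUSG00000001348, chromosome 9, 22126727 to 22135711, minus strand), which encodes tartrate-resistant acid phosphatase, was the gene that was higher at dpi2. Its macrophage level was 46.7 CPM in the control and 129 CPM in the KO, a ratio of 2.77 (2.62 to 2.93). At dpi4 its macrophage level was 284 and 329 CPM, a ratio of 1.16 (1.13 to 1.19), so the KO library was above the control at both times but past the rule at dpi2 only. T or NK cells held from 34.3 to 43.4 CPM of *Acp5*, close to the control macrophages at dpi2. It was also higher in the KO in dendritic cells at dpi2 and lower in the few monocytes at dpi4 (below). In monocytes at dpi2 it was just short of the rule (log2 ratio 0.58) and passed as higher with median-of-ratios scaling. The counts were unevenly spread over cells. In the KO library at dpi2 the 10 macrophages richest in *Acp5* held 28.2% of its 3832 UMIs, and 1 cell held 405, whereas in the control the top 10 held 11.1% of 1752. Without the cycling macrophages that held this cell (sub-cluster 12), the ratio was 2.21 (2.08 to 2.35).

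*Atp6v0d2* (ENSMUSG00000028238, chromosome 4, 19876841 to 19922605, minus strand), a subunit of the membrane sector of the proton pump that is found mainly in macrophages and osteoclasts, was the gene that was lower at dpi4. Its macrophage level was 10.7 CPM in the control and 6.39 CPM in the KO, a ratio of 0.596 (0.516 to 0.687). At dpi2 it was 25.7 and 18.7 CPM, a ratio of 0.729 (0.655 to 0.810), short of the rule. The dpi2 KO value rested on few cells, since 10 of 1036 macrophages held 41.0% of its 554 UMIs. Without sub-cluster 12 the dpi2 ratio was 0.599 (0.534 to 0.671), past the rule, but 10 of the remaining KO cells still held 43.5% of 457 UMIs. With each library clustered by itself, the ratio of *Atp6v0d2* was 0.655 (0.586 to 0.733) at dpi2, past the rule, and 0.743 (0.615 to 0.895) at dpi4, short of it, so that 0 of the 33 genes passed at dpi4.

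*Npc2*, which hands cholesterol to NPC1 for export from the lysosome, was the lowest member at dpi2. In macrophages it was at 1375 CPM in the control and 934 CPM in the KO, a ratio of 0.679 (0.669 to 0.689), just short of 1.5-fold. Without sub-cluster 12 it too passed the rule, which gave 1 member higher and 2 lower at dpi2. At dpi4 it was at 1740 and 1774 CPM. The same dpi2 pair was 1068 and 693 CPM in dendritic cells and 311 and 228 CPM in T or NK cells, which the Cre does not target. Whether RNA shared between the cells of a library had a part in this was not tested.

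In macrophages as a class, the TFEB family was not past the rule between genotypes. *Tfeb* was at 23.0 (control dpi2), 20.6 (KO dpi2), 38.6 (control dpi4) and 41.7 CPM (KO dpi4). *Tfe3* was at 61.1, 67.0, 79.1 and 78.2 CPM, and *Mitf* at 79.6, 90.1, 67.7 and 81.4 CPM. *Mitf* was above the control at both times, by ratios of 1.13 (1.07 to 1.19) and 1.20 (1.15 to 1.26). Outside that class and within its sub-clusters, some values did pass the rule. In dendritic cells and neutrophils this was *Mitf* (below). Within the sub-clusters of monocytes and macrophages described below, the ratio of *Mitf* was 1.54 in sub-cluster 9 at dpi2 and 1.68 in sub-cluster 11 at dpi4, that of *Tfeb* was 0.655 in sub-cluster 10 at dpi2 and that of *Tfe3* 0.643 in sub-cluster 1 at dpi4. The *Tfe3* value came from 72 control and 41 KO UMIs.

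**Figure D2:**
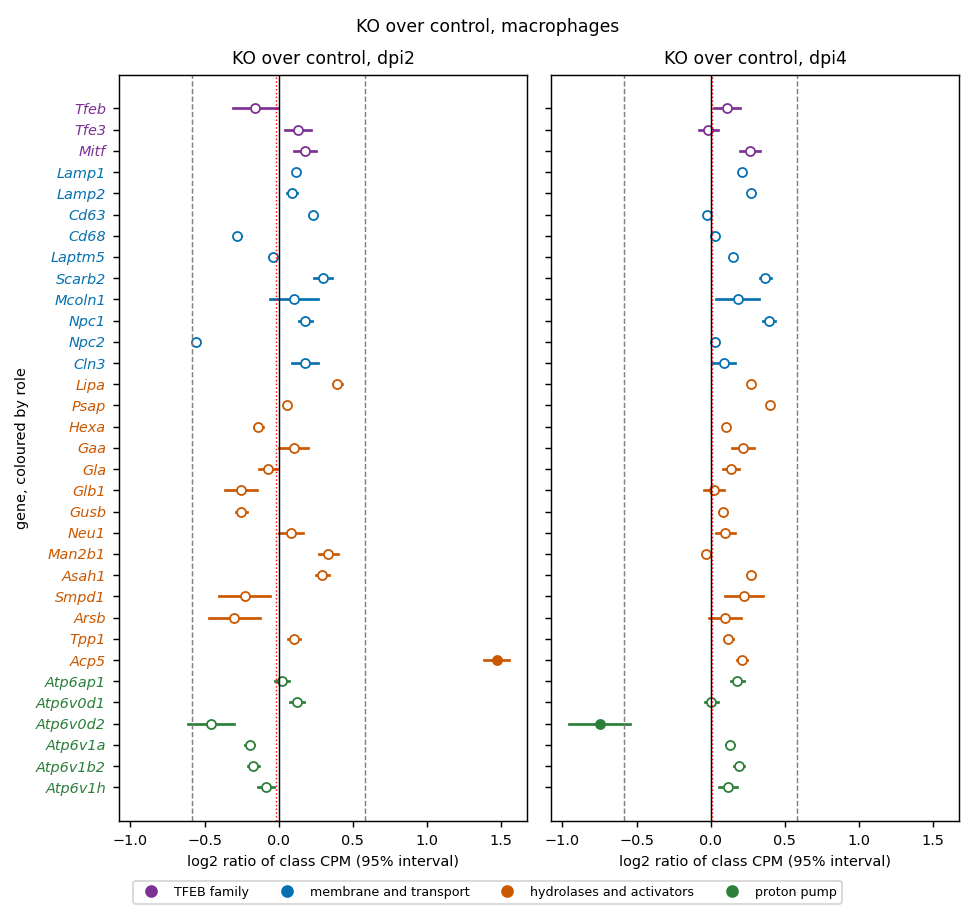
Log2 ratio of KO over control class CPM in macrophages at dpi2 (left) and dpi4 (right) for each of the 33 genes, with 95% counting intervals. Filled points are past the size rule, dashed lines mark 1.5-fold, and the red dotted line is the median of all genes. *Acp5* at dpi2 (1.47) and *Atp6v0d2* at dpi4 (-0.75) are the filled points.

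The genotypes filled different clusters, which limits these class values. At dpi2, 1142 of the 1886 control macrophages lay in a cluster led by *Hmga2* and *Htr2b*, and 436 of the 1036 KO macrophages in one with *Jag1* among its leading genes. The genes were therefore also compared within those of the 16 sub-clusters of monocytes and macrophages where both genotypes had at least 30 cells. At dpi4 the split was also wide: sub-cluster 6 held 37 control and 776 KO cells, sub-cluster 8 186 and 471, and sub-cluster 0 1188 and 228. Within sub-clusters at dpi4, the median log2 ratio of the members was 0.27 in 11, 0.11 in 13, 0.09 in 6, 0.03 in 12 and 0.02 in 1. It was 0.00 in 4, -0.02 in 14, -0.09 in 0 and -0.11 in 8. The medians of all genes there lay from -0.10 to 0.07. At dpi2, *Atp6v0d2* was lower in the KO in sub-cluster 1 (*Hmga2*, *Fabp4*), at 31.5 and 16.2 CPM, and in sub-cluster 10 (*Jag1*), at 59.9 and 14.7 CPM. At dpi4 it was lower in sub-clusters 0, 8, 13 and 14, with ratios from 0.342 to 0.516. It was higher in the cycling sub-cluster 12 (*Top2a*, *Mki67*) at dpi2, at 10.4 CPM in the control and 40.4 CPM in the KO, with all 97 KO UMIs in 10 cells of 58. In the other 4 of the 11 comparisons with enough UMIs it was not past the rule, and in 2 of these the KO was above the control, at dpi4 in sub-cluster 12 (ratio 1.29) and in sub-cluster 6 (ratio 1.96, 0.525 to 16.5, from 2 control UMIs).

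*Acp5* was higher in the KO at dpi2 in 5 sub-clusters. The ratios were 1.51 in sub-cluster 2, 1.97 in 3, 2.31 in 5, 1.74 in 7 and 12.0 in 12, the last from 153 and 865 UMIs, of which 94.7% in the KO lay in 10 cells. In sub-clusters 1 and 10, the largest of the control and the KO at dpi2, it was 1.40 and 1.38, short of the rule. *Npc2* was lower at dpi2 in sub-clusters 2, 7 and 9, with ratios of 0.638, 0.622 and 0.651. *Cd63*, a tetraspanin of late endosomes, and *Lipa*, the lysosomal acid lipase, were higher in the KO at dpi2 in sub-clusters 7 (*Cd163*, *Lyve1*; 1.67 and 1.54) and 9 (*Vcan*, *Il1b*; 2.01 and 1.90). At dpi2, *Psap* was also higher in sub-cluster 7 (1.54), *Mcoln1*, a lysosomal calcium channel, in sub-cluster 2 (1.52) and *Arsb* in sub-cluster 5 (1.56), while *Cln3* was lower in sub-cluster 5 (0.612), and at dpi4 *Glb1* was lower in sub-cluster 1 (0.571). The values of *Arsb*, *Cln3* and *Glb1* came from 30, 28 and 44 KO UMIs. The share of all genes past the rule was 4.70% higher and 5.18% lower in sub-cluster 2, 4.13% and 3.57% in 5, 5.53% and 5.23% in 7, and 4.93% and 5.29% in 9. The members past it were 2 higher and 1 lower of 32 in sub-cluster 2, 2 and 1 of 31 in 5, 4 and 1 of 33 in 7, and 3 and 1 of 30 in 9. Over all 17 comparisons between genotypes within a sub-cluster the share of all genes was from 2.24% to 6.90% higher and from 2.17% to 7.01% lower. In these, from 0 to 4 members were higher and from 0 to 2 lower.

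More of the genes passed the rule between time points than between genotypes. Between dpi2 and dpi4 in control macrophages, 9 of the 33 genes were higher and 3 lower, where 17.4% of the 11739 genes scored were higher and 17.9% lower. In KO macrophages 11 were higher and 2 lower, where 17.1% of 11440 genes were higher and 15.3% lower. The median log2 ratio of the 33 genes was 0.14 in the control and 0.28 in the KO, against -0.07 and -0.05 over all genes. The members that were higher are 27.3% (control) and 33.3% (KO) of the list, above the background, and those that were lower are 9.09% and 6.06%, below it. In both genotypes 8 genes were higher (*Tfeb*, *Laptm5*, *Scarb2*, *Hexa*, *Glb1*, *Man2b1*, *Asah1* and *Acp5*) and 2 lower (*Atp6v0d2* and *Atp6v1h*), which is 24.2% and 6.06% of the list, where 11.8% of 11369 genes were higher and 11.2% lower in both.

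In the class as a whole, most hydrolases had higher values at dpi4 and the listed proton pump genes lower ones. Ratios above 1 were found for 5341 of 11739 genes scored in the control (45.5%) and 5362 of 11440 in the KO (46.9%). Of the 14 hydrolases and activators, 13 had ratios above 1 in each genotype, and 5 (control) and 7 (KO) were past the rule, all higher. Of the 6 proton pump genes, 0 had a ratio above 1 in either genotype, and 3 and 2 were past the rule, all lower. *Acp5* went from 46.7 to 284 CPM in the control, a ratio of 6.08 (5.78 to 6.39), and from 129 to 329 CPM in the KO, a ratio of 2.54 (2.45 to 2.64). *Man2b1*, lysosomal alpha-mannosidase, went from 109 to 367 CPM and from 137 to 359 CPM.

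*Hexa*, the alpha subunit of beta-hexosaminidase, went from 488 to 883 CPM in the control and from 444 to 950 CPM in the KO. *Glb1*, lysosomal beta-galactosidase, went from 45.2 to 75.7 CPM and from 38.0 to 76.9 CPM. *Laptm5*, a lysosomal membrane protein of blood cells, went from 743 to 1482 CPM and from 722 to 1647 CPM. Among the KO libraries alone, *Psap*, *Arsb* and *Npc2* also passed, and in the controls alone *Cd63* did. These differences between genotypes were not tested.

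In the proton pump, *Atp6v1h*, the regulatory H subunit of the soluble sector, went from 160 to 90.2 CPM in the control and from 151 to 97.7 CPM in the KO. *Atp6v1b2*, which carries an ATP-binding site, went from 369 to 245 CPM and from 328 to 280 CPM, and was past the rule in the control only. Relative to the all-gene median, *Atp6v1b2* in the control and *Atp6v1h* in the KO were short of the rule. *Atp6v0d2* went from 25.7 to 10.7 CPM and from 18.7 to 6.39 CPM. *Atp6v0d1*, the widely expressed isoform of the same d subunit, went from 214 to 180 CPM and from 232 to 180.2 CPM.

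**Figure D3:**
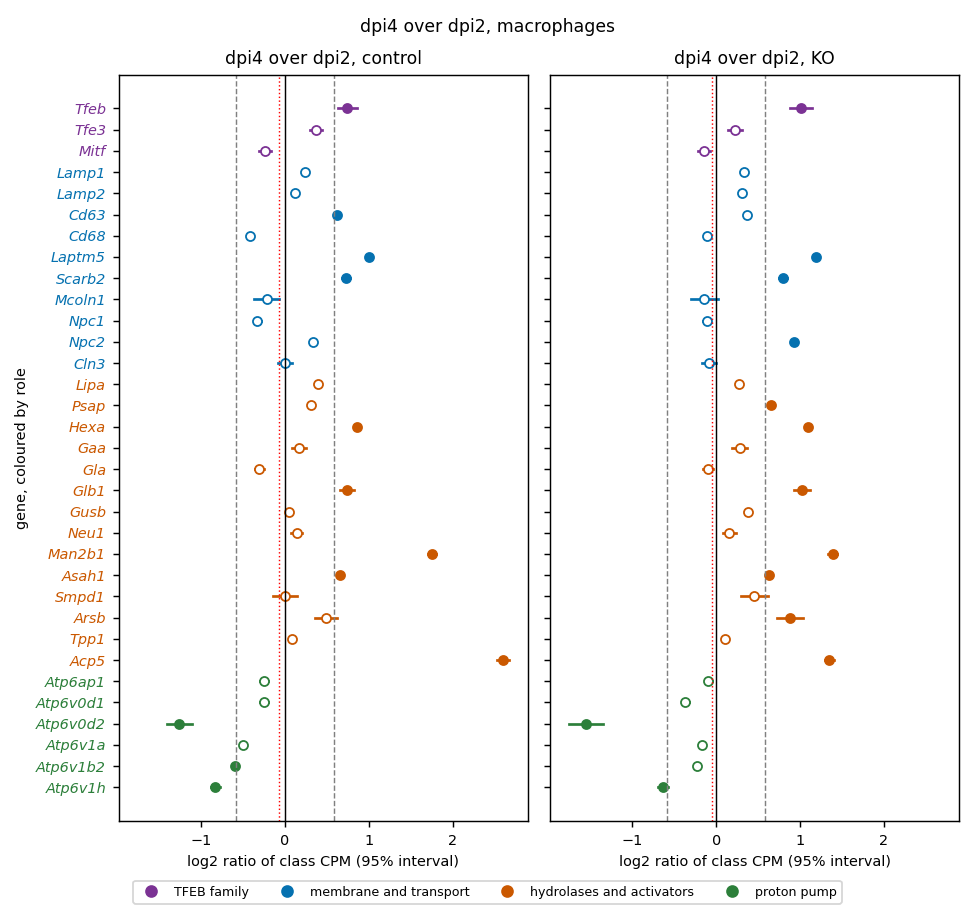
Log2 ratio of dpi4 over dpi2 class CPM in macrophages of the control (left) and KO (right) for each of the 33 genes, with 95% counting intervals. Filled points are past the size rule, dashed lines mark 1.5-fold, and the red dotted line is the median of all genes. All 6 proton pump genes lie left of 0 in both panels and 13 of the 14 hydrolases lie right of it.

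The make-up of the class differed between the time points, as the clusters at dpi2 and dpi4 were mostly different. The 10 macrophage markers, summed in the class, were at 10833 CPM at dpi2 and 38540 CPM at dpi4 in the control, and at 12325 and 30920 CPM in the KO. The 8 monocyte markers were at 1250 and 556 CPM in the control and at 916 and 461 CPM in the KO. All of these markers were detected in each library, and their part in the differences with time was not tested. The cycling sub-cluster 12 had at least 30 cells in all 4 libraries, and there 12 of 33 genes were higher and 1 lower in the control (all genes: 9.04% and 8.59%). In the KO 16 were higher and 1 lower (all genes: 11.8% and 13.3%). Sub-cluster 1 also had enough cells, with 3 higher and 1 lower in the control, from 41 cells at dpi4 (all genes: 3.96% and 4.05%), and 2 higher and 0 lower in the KO, from 33 (all genes: 3.12% and 8.81%). *Atp6v0d2* was the lower gene in each of the 3 comparisons that had one. The other proton pump genes were not lower throughout. In sub-cluster 1, 3 of the 6 had ratios above 1 in the control and 5 in the KO, where *Atp6v1a* was at 676 CPM at dpi2 and 776 CPM at dpi4. In sub-cluster 12, 4 of the 6 were above 1 in each genotype. The 14 hydrolases and activators were above 1 in all 4 comparisons but for 2 genes in sub-cluster 1 of the KO.

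The levels were also followed over the 35 pairs of sub-cluster and library with at least 30 cells. One of these pairs is sub-cluster 15, whose 68 cells are led by the neutrophil genes *S100a9* and *S100a8*. Across the pairs, *Cd63* ranged from 34.8 CPM in the *Ifitm6* sub-cluster 5 (control dpi2) to 2633 CPM in the *Mmp12* and *Itgax* sub-cluster 14 (control dpi4). *Acp5* ranged from 10.7 to 523 CPM and *Lipa* from 52.7 to 1070 CPM, both with their top in sub-cluster 14. The summed list was highest in the *Mfge8* and *Gpnmb* sub-cluster 8, at 30311 CPM in the dpi4 control and 28841 CPM in the dpi4 KO, and lowest in sub-cluster 9, at 9050 CPM in the dpi2 control and 9100 CPM in the dpi2 KO. *Psap*, *Hexa*, *Glb1*, *Gusb*, *Gla*, *Gaa* and *Tpp1* all had their highest value in sub-cluster 8 of the dpi4 control. *Mitf*, *Atp6v1a* and *Atp6v0d2* were instead highest in sub-cluster 10 of the dpi2 control.

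**Figure D4:**
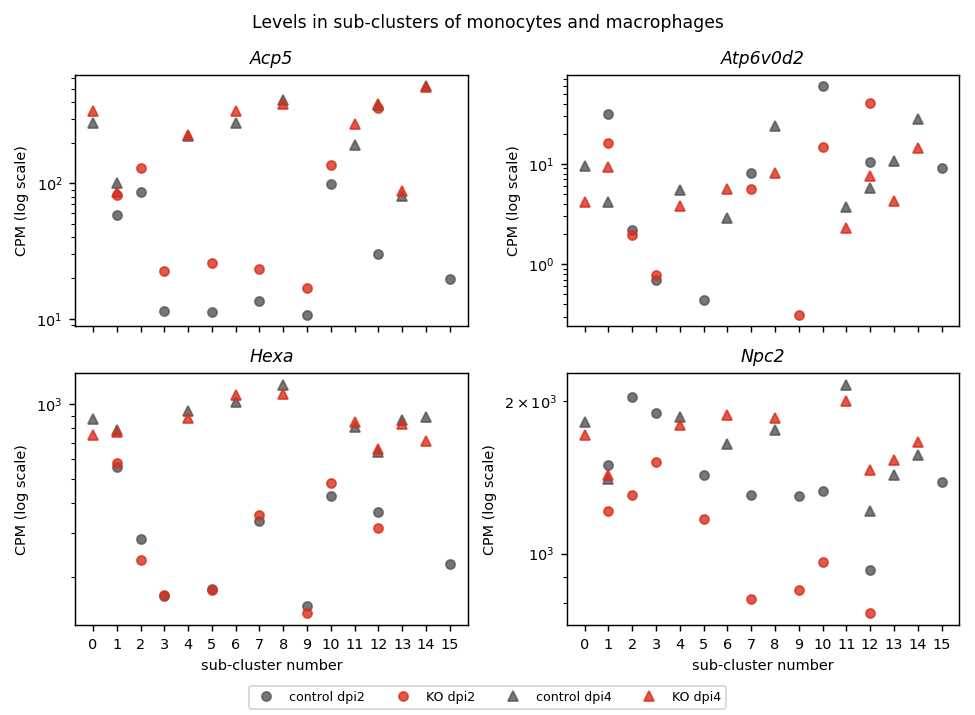
CPM (log scale) of *Acp5*, *Atp6v0d2*, *Hexa* and *Npc2* in each sub-cluster of monocytes and macrophages, for libraries with at least 30 cells in it; values of 0 are not drawn. The dpi4 libraries (triangles) are highest for *Acp5* in sub-cluster 14 and for *Hexa* in sub-cluster 8.

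In monocytes at dpi2, 32 genes were scored. None was higher in the KO, where 5.13% of 9989 genes were, and 1 was lower (*Npc2*, from 1790 to 1085 CPM, log2 ratio -0.72), where 6.58% were. *Acp5* was the highest member, at a log2 ratio of 0.58, just short of the rule, and with median-of-ratios scaling it passed as higher. It also passed in sub-clusters 2, 3 and 5 (1.51, 1.97 and 2.31), which match monocytes best, but not in sub-cluster 9. The median log2 ratio was -0.05. Here too the libraries differed in make-up, as a cluster led by *Vcan* and *Il6* held 619 of the 953 KO monocytes.

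At dpi4 only 51 control and 69 KO monocytes were left, and 26 genes were scored. Of these, 1 was higher in the KO (*Atp6ap1*, an accessory subunit of the proton pump, at 117 and 178 CPM), where 5.53% of 3310 genes were, and 4 were lower (15.4%), where 4.92% were. The lower genes were *Acp5*, *Tpp1*, *Cd63* and *Npc1*. *Acp5* was at 109 CPM in the control and 20.4 CPM in the KO, from 55 and 12 UMIs, a ratio of 0.188 (0.0915 to 0.355). This is the opposite direction to macrophages and to monocytes at dpi2. The summed macrophage markers in these cells were at 13441 CPM in the control and 8008 CPM in the KO, with all 10 detected in both, and their part was not tested.

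In dendritic cells, 32 genes were scored. At dpi2, 2 were higher in the KO (*Mitf*, at 10.4 and 17.8 CPM, and *Acp5*, at 28.3 and 45.6 CPM), where 4.6% of 8145 genes were. Another 2 were lower (*Npc2* and *Arsb*, the latter at 33.8 and 22.1 CPM), where 4.54% were. At dpi4, 0 were higher (all genes: 2.72%) and 1 was lower (*Mitf*, at 29.7 and 19.8 CPM; all genes: 2.37%). Between the time points, 7 were higher and 0 lower in the control (all genes: 10.5% and 9.59%), and 3 were higher and 0 lower in the KO (all genes: 11.2% and 7.42%). *Acp5* was higher at dpi4 in both, but in the KO it was short of the rule with median-of-ratios scaling. The summed macrophage markers in the class were at 882 CPM at dpi2 and 5625 CPM at dpi4 in the control, and at 1094 and 3207 CPM in the KO, with all 10 detected in each, and their part was not tested.

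In neutrophils at dpi2, 29 genes were scored and 3 were higher and 3 lower in the KO, where 4.88% of 5835 genes were higher and 20.8% lower. All genes had a median log2 ratio of -0.30 here and the members one of -0.00, so the ratios depend on the scaling. Relative to the all-gene median, 6 members were higher and 2 lower, where 10.2% and 7.97% of all genes were, and *Man2b1* was no longer past the rule while *Cln3*, *Lipa* and *Gla* were. *Gusb*, beta-glucuronidase, was at 125 CPM in the control and 45.2 CPM in the KO, a ratio of 0.361 (0.287 to 0.451), and at dpi4 at 129 and 40.3 CPM from 48 and 4 UMIs. *Npc2* was at 318 and 146 CPM and *Man2b1* at 161 and 98.3 CPM. *Npc1*, the cholesterol exporter of the lysosomal membrane, was at 47.4 and 88.4 CPM, *Lamp2* at 401 and 686 CPM and *Mitf* at 30.5 and 47.2 CPM. At dpi4, with 128 control and 35 KO neutrophils, 19 genes were scored. Of these, 1 was higher in the KO (*Lamp2*) and 1 lower (*Gusb*), where 74 and 129 of 1606 genes were.

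These neutrophils were shallow, with medians of 2308 and 3422 UMIs, and the summed macrophage markers in them were at 669 and 501 CPM, with all 10 markers detected in both libraries. The part of such RNA in the lower *Npc2* and *Gusb* was not tested. A shallow cluster of 574 cells led by *Il1f9* and *Mirt1*, of which 472 were from the KO library at dpi2, stayed unnamed and is outside the neutrophil class. It matched neutrophils best, with 7 of the 8 neutrophil markers detected, but none was among its leading genes. Only 86 of its cells were from the control at dpi2. The class as compared thus left out more such cells of the KO (831 kept) than of the control (633 kept).

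Other lysosomal and autophagy genes were followed in macrophages for context. Between genotypes at dpi2, *Tfec*, a further relative of TFEB, was at 13.7 CPM in the control and higher in the KO by a ratio of 2.42 (2.17 to 2.70), and at dpi4 it was at 28.1 and 53.1 CPM. It was the 1 gene of the 88 others past the rule at both times, a share near the 1.01% of all genes that were higher at both. *Slc11a1*, a metal transporter of the phagosome (143 and 248 CPM), *Sqstm1*, an autophagy receptor (218 and 423 CPM), and *Atg9a*, an autophagy membrane protein (8.06 and 12.6 CPM), were higher at dpi2 only, and *Sort1*, a sorting receptor (29.9 and 54.9 CPM), at dpi4 only. None of these lists had a gene past the rule in the lower direction.

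Between the time points, 7 of the other 23 hydrolases were higher in the control (30.4%) and 10 in the KO (43.5%), where 17.4% and 17.1% of all genes were, and 0 were lower in either. Of the other 12 proton pump genes, 4 (control) and 5 (KO) had ratios above 1, 0 were higher in either genotype and 1 (*Atp6v1c1*, from 275 to 155 CPM) was lower in the control. Of 15 autophagy genes 4 (26.7%) and 3 (20%) were higher and 0 lower, with *Ulk1*, the kinase that starts autophagy, at 10.3 and 32.5 CPM in the control and 13.9 and 37.3 CPM in the KO. Of 15 other lysosomal membrane genes, 2 (13.3%) were higher in each genotype, and 1 was lower in the control and 0 in the KO. Of 10 genes for sorting to lysosomes, 0 were higher and 2 lower in the control (*Igf2r* and *Gnptab*). In the KO, 1 was higher (*Sort1*) and 1 lower (*Igf2r*). Of the 13 nutrient signalling genes, *Rragd* and *Tfec* were higher and *Rraga* was lower in both genotypes.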

How the data were processed

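The authors deposited raw UMI counts per gene and barcode from Cell Ranger 6.1.2 (mm10, per the labels), unnormalized. The labels and the study's methods name different versions of the 3′ kit. Barcodes with at least 500 genes and under 10% mitochondrial UMIs were kept, and the highest Scrublet scores were removed as doublets (100 to 289 per library). The joint data (2000 variable genes, 30 components, 15 neighbours, Leiden resolution 1; scanpy 1.11.5, leidenalg 0.10.2) were clustered without the lysosome lists, and clusters were named from markers. Class UMIs were summed per library. CPM have exact Poisson intervals and ratios exact conditional binomial intervals (95%). They were run on simulated Poisson counts, which follow the model of the intervals. Such a run checks the code and not how the intervals hold for counts clumped in few cells. The study's 1.5-fold limit was kept but its test over cells was not. No test was run.

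Genes given in full are the TFEB family, members past the rule at both times, and the 3 highest and lowest past it in each comparison; other genes given with values, such as *Npc2*, *Hexa*, *Glb1* and *Atp6v0d1* in macrophages, were added after their values were seen. Promoter stretches are printed for genes named by that rule in macrophages that hold a motif before the start; the motif condition was set after the matches were seen. The members and lists were chosen with earlier results of these data known. Alternatives are in the closing section.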

Additional observations from a re-analysis of the deposited data

Results flagged for a closer look

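In monocytes, *Acp5* went opposite ways with time in the 2 genotypes: the log2 ratio of dpi4 over dpi2 was 1.63 in the control and -1.37 in the KO. The dpi4 values came from 51 and 69 monocytes with 55 and 12 UMIs. In dendritic cells, *Mitf* was above the control in the KO library at dpi2 (log2 ratio 0.78, from 40 and 76 UMIs) and below it at dpi4 (-0.59, from 150 and 100 UMIs). Neither difference between groups was tested, since each group was 1 library.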

How the results depend on the processing

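No paired analysis was possible because each group was 1 library. With each library clustered by itself, the macrophage median log2 ratio of KO over control was 0.12 at dpi2 and 0.20 at dpi4, with 2 members past the rule at dpi2 (*Acp5* and *Atp6v0d2*) and 0 at dpi4, where *Atp6v0d2* was no longer past it, and that of dpi4 over dpi2 in the KO was 0.16. That setting left some macrophage-like clusters unnamed and outside the class. With monocytes and macrophages pooled, 2 members passed at dpi2, the medians over time were 0.38 (control) and 0.57 (KO), and the monocyte median turned from -0.05 to 0.11, with 2 past. With median-of-ratios scaling, the neutrophil median went from -0.00 to 0.29 (from -0.03 to 0.29 over all alternatives) and that over time in the control was 0.21, and 2 members passed in monocytes at dpi2 (*Npc2*, lower, and *Acp5*, higher). With the mean CPM per cell the median over time in the KO was 0.21. At a limit of 2-fold, 0 members passed in macrophages at dpi4 and in monocytes, 2 in neutrophils, and 3 (control) and 7 (KO) over time. Leaving out the cycling sub-cluster 12, an alternative chosen after seeing the data, gave 3 members past at dpi2 in macrophages. The other 70 medians and counts stayed within the counting range of the median or within 1.5 times the count. The alternatives were not run for dendritic cells and for monocytes at dpi4, other than median-of-ratios scaling, chosen after seeing the data, under which *Acp5* over time in KO dendritic cells was short of the rule. No alternative was run for neutrophils at dpi4. With 1 library per group, mouse, library and genotype cannot be told apart. Within the genotype, neither can loss of *Bach1*, the Cre and loss of *Lyz2* RNA.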
